A study of Glycine max with 14 samples.

Results

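The RNAs described here are the 100 gene loci whose level varied least over 7 stages of cotyledon development in germinating soybean (Glycine max, cultivar Williams). They were chosen from 69145 loci. For each locus the gene model with the highest mean RPKM was taken (reads per kilobase of model and per 1e+06 assigned reads). The 861 loci (1.25% of all) at 20 RPKM or more in all 14 libraries were eligible, and the 100 with the smallest standard deviation (SD) of log2(RPKM + 1) over the 14 libraries were kept. Level, SD and range of these loci come from the values that chose them, so they are descriptions and were not tested.

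Cotyledons are the storage leaves of the embryo. Stage 1 cotyledons had imbibed for 1 day. Sampling times from planting were 2 days for stage 2, then for stage 3 2 to 3 days, for stage 4 3 to 4 days, for stage 5 4 to 5 days, for stage 6 5 to 6 days and for stage 7 6 to 7 days. Each stage had 2 libraries from lyophilized tissue of greenhouse plants, labelled as biological replicates. The number of seedlings in each replicate is not stated. Libraries held 83.9 M to 131 M read assignments (M, units of 1e+06). The replicates of stage 1 lay furthest apart, with a median difference of 0.65 (log2) over the eligible loci outside the list, against 0.19 to 0.45 in the later stages, so results are given with and without stage 1.

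During germination the cotyledon empties its protein and oil stores and then greens, and much of its RNA is replaced. Reference RNAs are used as the fixed scale against which other RNAs are measured, for example in quantitative PCR, and a good one holds its level through such a change. Genes for cytoskeleton, translation, protein turnover and basic metabolism are the classes usually tried. The files give identifiers without gene names, and 0 of them matched the RefSeq gene table at hand, so no role is assigned to any locus below. RPKM is a share of assigned reads. A steady RPKM in whole cotyledons is a steady share, and fewer cells of a type cannot be told apart from less RNA per cell.

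The most stable locus was Glyma11g11760, measured on a model of 983 bases. In stages 1 to 7 it had 45.7, 46.1, 38.7, 37.9, 40.9, 39.3 and 35.6 RPKM in replicate 1. In replicate 2 it had 43.0, 40.4, 43.4, 41.2, 42.6, 30.8 and 41.1 RPKM. All libraries but stage 6 replicate 2 lay between 35.6 and 46.1 RPKM, and no stage stood clear of the rest. Its mean was 40.5 ± 4.00 RPKM (SD, n = 14), its SD on the log2 scale was 0.147, and its highest value was 1.498 times its lowest.

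Glyma12g04090 ranked second at nearly the same level, with a model of 1011 bases. In stages 1 to 7 it had 46.9, 43.1, 35.9, 36.6, 43.1, 42.4 and 39.3 RPKM in replicate 1. In replicate 2 it had 40.5, 38.6, 39.5, 42.8, 41.2, 28.5 and 40.9 RPKM. Stage 6 replicate 2 was again the lowest library, and the other 13 lay between 35.9 and 46.9 RPKM. The SD was 0.166 on the log2 scale. The log2 ratio of Glyma11g11760 to Glyma12g04090 had an SD of 0.0872.

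The next members were lower in level. Glyma12g00600 had a lowest, median and highest value of 20.4, 24.8 and 33.4 RPKM (SD 0.166 on the log2 scale), with its highest value in stage 4 replicate 1. Glyma19g28930 had 21.9, 25.7 and 33.0 RPKM (SD 0.173), and its highest library was stage 7 replicate 1. Glyma14g23990 had 20.4, 26.7 and 31.7 RPKM (SD 0.174). These 3 loci came within 2 RPKM of the minimum of 20 in their lowest library, so a slightly lower value would have removed them.

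Glyma18g10430 had a lowest, median and highest value of 35.7, 39.2 and 54.8 RPKM (SD 0.182 on the log2 scale). It was highest at stage 7, with 54.8 and 48.0 RPKM, and stage 2 replicate 1 reached the same 48.0 RPKM, so stage 7 did not stand clear. Glyma11g04330 was the most abundant of the first 10, at 86.9, 112 and 137 RPKM (SD 0.187). Glyma17g11820, on the longest model of the 100 (4101 bases), had 20.6, 26.4 and 31.3 RPKM (SD 0.189). Both stage 6 libraries of this locus, at 20.9 and 20.6 RPKM, were its lowest. Glyma13g03470 had 23.3, 30.3 and 36.9 RPKM (SD 0.194), and Glyma20g22600 had 32.9, 46.9 and 53.1 RPKM (SD 0.197), with both stage 6 libraries again the lowest at 34.6 and 32.9 RPKM.

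**Figure D1:**
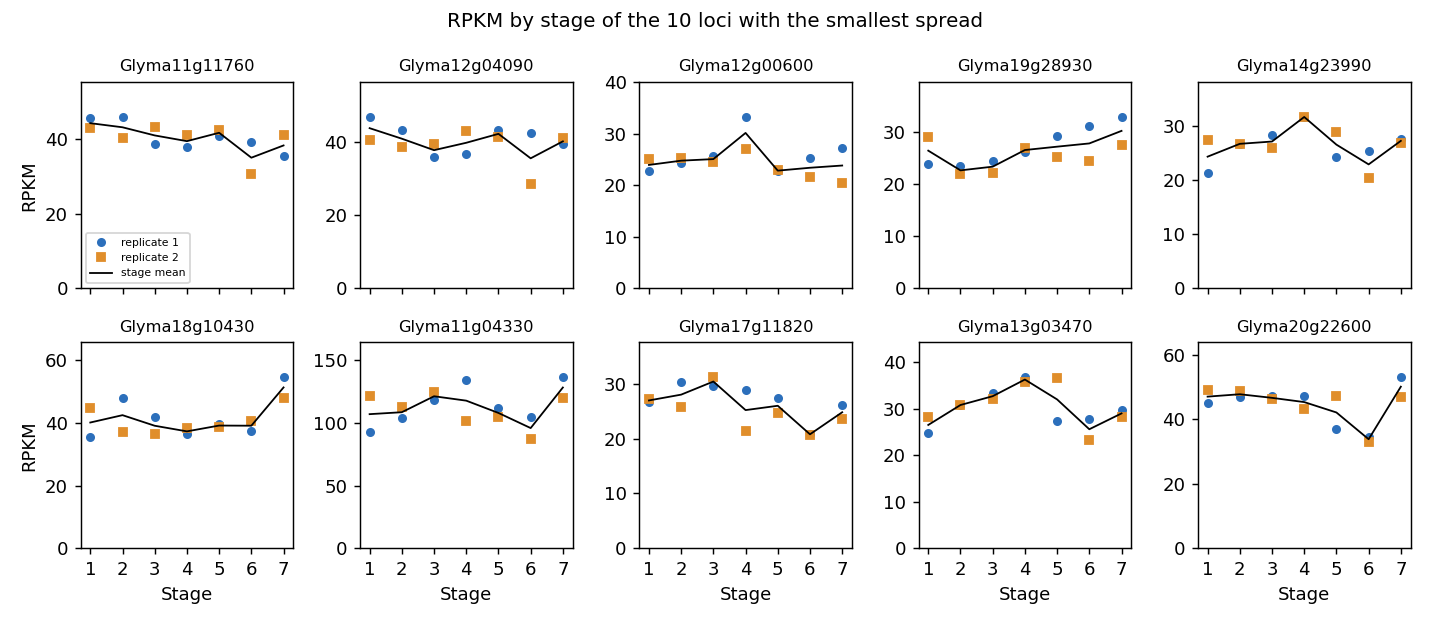
RPKM (vertical axis, from 0) at stages 1 to 7 for the 10 loci with the smallest SD. Circles are replicate 1, squares replicate 2 and the line joins the means of 2 libraries. Each locus stays within a 2-fold range, and the lowest point of 7 of the 10 is stage 6 replicate 2.

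Over all 100 members the SD ran from 0.147 to 0.299 on the log2 scale, with a median of 0.258, against a median of 0.600 in the other 761 eligible loci. The highest library was 1.498 to 2.39 times the lowest (median 1.87), against a median of 4.21 times in the other 761. The coefficient of variation of RPKM had a median of 18.3% in the members and 40.9% in the others. The range stayed under 2-fold in 74 members and in 9 of the other 761. The other 26 members spanned 2-fold or more across the course. The list has no natural edge. The members ranked 99 and 100, Glyma20g35200 and Glyma09g02240, had SDs of 0.298 and 0.299, and the next loci in order, Glyma09g37520 and Glyma10g32400, had 0.303 and 0.304.

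Members were of moderate level. Their mean RPKM had a median of 41.2 (24.9 to 575), against 75.4 (26.1 to 3355) in the other eligible loci. The minimum of 20 RPKM bears on this, because a locus with a mean near 20 can pass it only if it varies little. Of the 2570 loci with a mean of 20 to 40 RPKM, 123 (4.79%) were eligible, and 46 of these were members. Of the 1173 with a mean of 40 to 80 RPKM, 363 (30.9%) were eligible and 34 were members. Of the 420 with a mean of 80 to 160 RPKM, 227 (54.0%) were eligible and 17 were members. Above that, 148 of 324 (45.7%) were eligible and 3 were members. The median SD of eligible loci was 0.327, 0.487, 0.746 and 1.13 in the 4 bands from low to high.

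**Figure D2:**
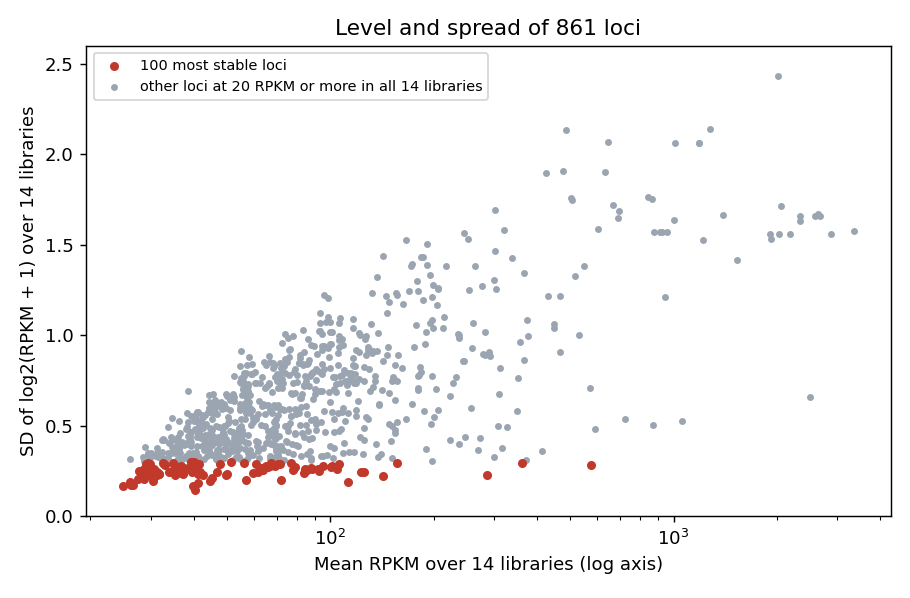
SD of log2(RPKM + 1) over 14 libraries (vertical axis) against mean RPKM (horizontal, log axis) for the 861 eligible loci, with the 100 members in red and the other 761 in grey. The members lie at the bottom, at SDs up to 0.299, mostly at low to middle levels, and the widest spreads are among the abundant loci.

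Abundant members are few. Glyma09g04950 was the highest, with a lowest, median and highest value of 415, 544 and 795 RPKM, a mean of 575 ± 114 (SD, n = 14) and an SD of 0.281 on the log2 scale. Replicate 1 was above replicate 2 in all 7 stages of this locus, for example 795 and 633 RPKM at stage 7 and 581 and 415 RPKM at stage 1. Glyma12g16390 had 258, 337 and 542 RPKM (SD 0.294), and replicate 1 was again above replicate 2 in every stage. Glyma06g42070.2, a model at another locus, lay within 0.1 log2 units of Glyma12g16390 in every library. Whether the 2 share reads was not tested, so the level of Glyma12g16390 may not be its own.

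Glyma08g22020 combined a high level with a smaller spread. It had a lowest, median and highest value of 234, 275 and 379 RPKM and an SD of 0.229, on a model of only 195 bases. Its 5 highest values were those of stage 3 (347 and 347 RPKM), stage 4 replicate 1 (379), stage 7 replicate 1 (331) and stage 2 replicate 2 (294). Glyma15g11200 had 96.4, 159 and 207 RPKM (SD 0.295), lowest in stage 5 replicate 1 and highest in stage 3 replicate 1. Glyma01g41100 had 109, 141 and 198 RPKM (SD 0.225), lowest in stage 1 replicate 1 and highest in stage 7 replicate 1.

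At the low end, the 5 members with the smallest mean were Glyma12g00600, Glyma17g11820, Glyma19g28930 and Glyma14g23990, already described, and Glyma15g13940. In stages 1 to 7, Glyma15g13940 had 23.4, 34.9, 31.5, 29.0, 26.3, 22.7 and 22.4 RPKM in replicate 1. In replicate 2 it had 27.99, 29.7, 32.7, 26.0, 31.4, 22.5 and 25.3 RPKM. Its stage means were highest at stages 2 and 3, and its 3 lowest libraries were those of stage 6 and stage 7 replicate 1, with an SD of 0.207 on the log2 scale.

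Counting error was small beside the spread. The reads recovered behind the members ran from 349 to 100665 per library. Counting error alone would give an SD of 0.00584 to 0.0641 on the log2 scale (median 0.0203), against the observed median of 0.258. The spread between replicates was also larger than these counting values. The pooled SD within stages had a median of 0.180 in the members and 0.348 in the other eligible loci, and the SD of the 7 stage means had a median of 0.218 in the members and 0.548 in the others. In 35 members the replicates of a stage differed more than the stage means did.

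The small remaining variation was not spread evenly over the libraries. Stage 6 replicate 2 was the lowest library of 36 members and stage 6 replicate 1 of 8, and neither was the highest library of any member. The stage 1 libraries were lowest in 17 and 14 members. Stage 7 replicate 1 was the highest library of 23 members, stage 4 replicate 1 of 21 and stage 1 replicate 1 of 14. By stage means, 49 members were lowest at stage 6 and 27 at stage 1, and 28 were highest at stage 7 and 25 at stage 4.

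Taken as the median deviation of the 100 loci from their own means, the offset was -0.27 (log2) in stage 6 replicate 2, -0.18 and -0.14 in stage 1 replicates 2 and 1, -0.11 in stage 6 replicate 1 and 0.23 in stage 4 replicate 1. In the other 9 libraries it lay between -0.018 and 0.11. The other 761 eligible loci had a median offset of -0.60 in stage 6 replicate 2 and 0.40 in stage 4 replicate 1, so both groups were shifted the same way in these libraries. In stage 7 replicate 1 they were not, with 0.11 in the members and -0.37 in the other eligible loci. Nor were they in stage 1 replicate 2 (-0.18 and 0.076) or stage 7 replicate 2 (0.031 and -0.30). The signs also differed, with smaller offsets, in stage 4 replicate 2 (-0.018 and 0.074) and stage 5 replicate 2 (0.037 and -0.043). Stage 6 replicate 2 and stage 4 replicate 1 also differed in the level of their loci as a whole. The upper quartile of loci, relative to the geometric mean of the 14 libraries, was 0.664 in stage 6 replicate 2, against 1.23 in stage 4 replicate 1. The part of this in the members' offsets was not tested.

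**Figure D3:**
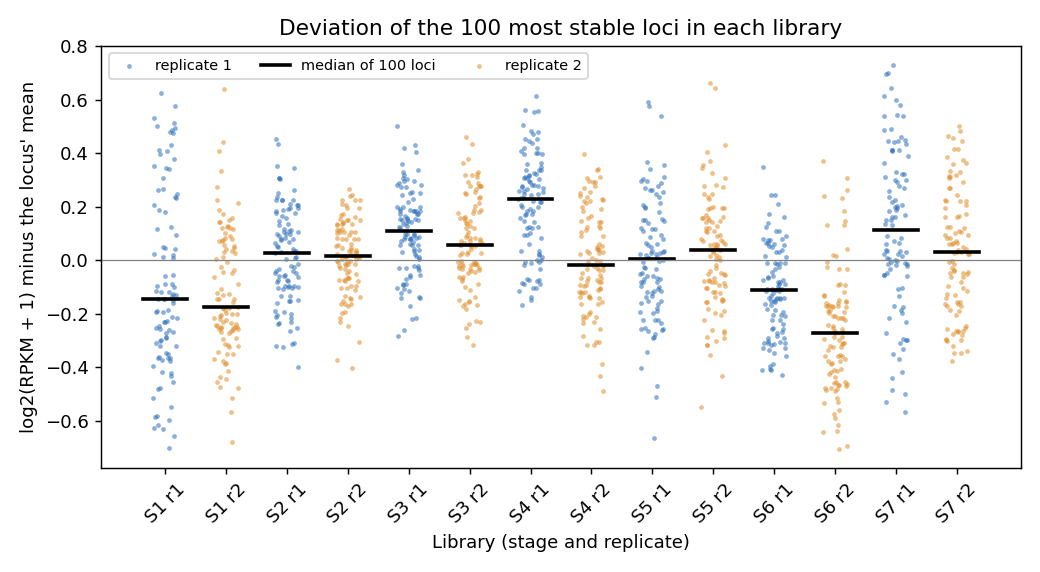
Deviation of log2(RPKM + 1) from the locus' own mean (vertical axis) for each of the 100 members in each library (horizontal axis, S for stage and r for replicate), with the median as a black bar. The bars run from -0.27 in stage 6 replicate 2 to 0.23 in stage 4 replicate 1, and the points are most widely scattered in stage 1 replicate 1.

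The stage tests are given for completeness, since the choice used the same values and nothing is read from the members' counts. The moderated F test over the 7 stages in limma called 0 of the 100 members at an adjusted p under 0.05, where it called 58.0% of the 44450 models tested and 48.7% of the eligible loci. At an unadjusted p under 0.05 it called 1 member, against 65.0% of all models, and no other tool was run. Without stage 1, limma called 0 of the 100 members by its adjusted p, against 65.7% of all models, and 4 members at an unadjusted p under 0.05, against 71.0%. After upper quartile scaling 11 members passed the adjusted p, against 54.2% of all models and 44.5% of the eligible loci. After median ratio scaling 18 did, against 53.6% and 44.7%.

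For stage 7 against stage 1, limma called 0 members with an adjusted p under 0.05 and a log2 fold change beyond 1 in either direction, against 35.1% of all models and 24.7% of the eligible loci. At an unadjusted p under 0.05 there were 12 members at any fold, against 53.0% of all models. The members' log2 fold changes ran from -0.52 to 0.81 with a median of 0.15, and 66 were above 0. In the other eligible loci they ran from -3.48 to 5.79 with a median of -0.34. With no fold threshold, 5 members passed the adjusted p, where 44.7% of all models did. They were Glyma01g45300, Glyma01g45290, Glyma02g35990, Glyma18g51980 and Glyma02g37120, all higher at stage 7, with log2 fold changes of 0.70 to 0.81. Leaving out 1 stage 7 library leaves 1 at that stage, and fewer of all models then pass. Whether the 5 calls hold without either library can therefore not be told. After upper quartile scaling 15 members passed the adjusted p at any fold, against 22200 of the 44450 models. After median ratio scaling 19 did, against 21489.

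Leaving out the stage 1 libraries changed much of the list. With only the 12 libraries of stages 2 to 7, 1364 loci were eligible, and 50 of the 100 members were chosen again. All 10 of the first members stayed, and 88 members were among the first 200. The other 50 places went to loci that were steady from stage 2 onward. Both stage 1 libraries lay outside the range of the 12 later libraries in 33 of them, and 1 of the stage 1 libraries did in 17. Over all 14 libraries 5 of the 50 had an SD within the members' limit of 0.299, and a stage 1 value below 20 RPKM had kept them out. Of the 50, 41 were lower at stage 1 than their mean over the later libraries and 9 were higher. The median difference was -0.72 (log2), and 15 were lower by over 1 log2 unit. In 26 of the 50, 1 or both stage 1 libraries were below 20 RPKM, 23 times in replicate 1 and 11 times in replicate 2.

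The members themselves were little changed by this step. Their median SD was 0.239 without stage 1 and 0.258 with it, and 66 of 100 had the smaller SD without stage 1. The 2 stage 1 replicates of a member differed by a median of 0.27 (log2), against 0.65 in the other eligible loci. In stages 2 to 7 the median replicate difference of the members was 0.0998 to 0.215, according to stage.

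The locus with the smallest SD in stages 2 to 7 was a member, Glyma13g06170, whose SD was 0.0975 without stage 1 and 0.206 with it. In stages 1 to 7 it had 44.2, 26.8, 31.3, 29.0, 29.0, 27.0 and 24.2 RPKM in replicate 1. In replicate 2 it had 24.4, 28.8, 27.4, 26.9, 29.4, 26.5 and 25.5 RPKM. A single library, stage 1 replicate 1, stood above all others, while the remaining 13 lay between 24.2 and 31.3 RPKM. Glyma09g42010 also narrowed, with an SD of 0.154 without stage 1 and 0.247 with it. It had 24.4 and 33.9 RPKM at stage 1 and 34.0 to 49.0 RPKM in the 12 later libraries, so both stage 1 libraries lay below all later ones, replicate 2 only narrowly. Glyma11g11760, Glyma12g04090 and Glyma14g23990 completed the 5 steadiest members of stages 2 to 7, with SDs of 0.146, 0.164 and 0.164.

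The members that moved furthest in rank were in the lower part of the list, ranked 72 to 97 with stage 1. Glyma12g16390 was ranked 93 with stage 1 and 266 without it, Glyma02g07230 90 and 261, Glyma15g11200 95 and 250, Glyma01g38470 97 and 239, and Glyma18g53610 72 and 213. Their SDs differed little between the settings, for example 0.313 without stage 1 and 0.293 with it in Glyma02g07230. That locus had 33.3 RPKM in stage 6 replicate 2, its lowest, and 75.5 RPKM in stage 4 replicate 1, its highest, so its extremes lay outside stage 1. The same libraries were the extremes of Glyma12g16390 and Glyma18g53610.

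Among the loci that entered, Glyma09g38110 had 22.0 and 31.2 RPKM at stage 1, and 42.5 to 54.1 RPKM in the 12 later libraries (mean 48.3 ± 3.98, SD, n = 12). Its SD was 0.117 without stage 1 and 0.341 with it. Both stage 1 libraries were below all later ones. Glyma17g00320 had 13.3 and 25.9 RPKM at stage 1 and 24.3 to 33.1 RPKM later, so only stage 1 replicate 1 lay outside. Glyma04g36360, with 17.0 and 28.4 RPKM at stage 1 and 26.2 to 37.9 RPKM later, had the same form. So did Glyma06g18530, with 16.8 and 27.0 RPKM at stage 1 and 24.0 to 35.4 RPKM later. Glyma18g19420 went the other way, with 161 RPKM in stage 1 replicate 1, 57.6 RPKM in stage 1 replicate 2 and 52.5 to 73.8 RPKM in the later libraries. In 4 of these 5 loci stage 1 replicate 2 lay inside the later range and stage 1 replicate 1 outside it.

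**Figure D4:**
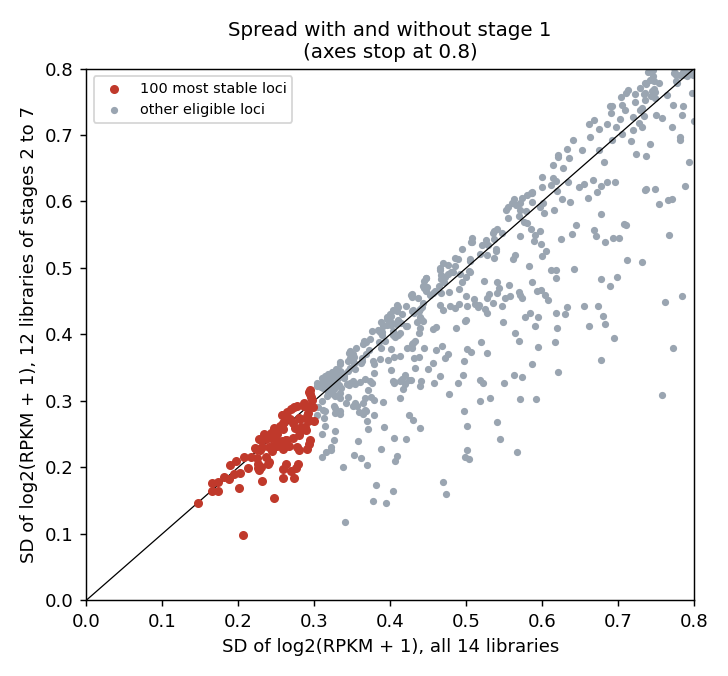
SD of log2(RPKM + 1) over the 12 libraries of stages 2 to 7 (vertical axis) against the SD over all 14 libraries (horizontal axis), with members in red and other eligible loci in grey, both axes ending at 0.8. Members lie close to the line of equal SD, while part of the grey loci fall far below it, as Glyma09g38110 does with 0.117 against 0.341.

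The values that a choice did not use were examined by choosing in 1 replicate and measuring in the other. Both replicates pass through the same stages, so this bears on the replicate and not on the course. The 100 loci chosen in the 7 replicate 1 libraries had a median SD of 0.225 there and of 0.283 (0.0912 to 0.765) in the replicate 2 libraries, where the other loci eligible in replicate 1 had a median of 0.579. Of these 100, 72 stayed within a 2-fold range in replicate 2, against 21.6% of the other eligible loci. The 100 chosen in replicate 2 had a median SD of 0.188 there and of 0.309 (0.135 to 1.14) in replicate 1, where the others had 0.741. Of these, 55 stayed within a 2-fold range in replicate 1, against 11.7% of the others. The 2 lists, drawn from 1158 loci eligible in replicate 1 and 1227 eligible in replicate 2, shared 29 loci, 29% of each.

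A single reference RNA can be read only against others. The RPKM ratio of 2 RNAs in a library stays the same when that library is scaled by 1 factor. Quantile normalization is no such factor. The ratios below use RPKM + 1, so they are not fully free of the scaling. Among the 4950 pairs of members the SD of the log2 ratio had a median of 0.313 (0.0280 to 0.544). The mean of these SDs for a member, the M value of the geNorm method, was smallest in Glyma14g23990 (0.250), Glyma11g04330 (0.251), Glyma13g03470 (0.253) and Glyma12g00600 (0.260), and its median was 0.310. Of the 10 members with the smallest M, 6 were also among the 10 with the smallest SD. Since the members were chosen in the deposited scaling, M ranks them only among themselves.

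Averaging 3 or more members gave a narrower spread than 1, while averaging 2 did not. Over the 14 libraries, the mean log2 level of the first 2 members had an SD of 0.150, that of the first 3 had 0.111, of the first 5 had 0.0990, of the first 10 had 0.103 and of all 100 had 0.116. Glyma11g11760 alone had 0.147. Without stage 1 these sets had 0.148, 0.115, 0.105, 0.108 and 0.117. In each of these sets stage 6 replicate 2 was the lowest library. The geometric mean of RPKM + 1 over all 100 in stage 4 replicate 1 was 1.38 times that in stage 6 replicate 2.

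The 100 loci may not all be separate readings. In 23 pairs of members, which involve 37 members, the SD of the log2 ratio was under 0.1. The 2 identifiers do not share a chromosome number in 20 of the 23 pairs. These include Glyma10g07820 with Glyma0169s00210, a scaffold identifier that carries no chromosome number. A partner under this limit among all eligible loci was found for 46 members (46%) and for 34.8% of the other eligible loci. Members were chosen for a small SD, which bears on the SD of their ratios, so nothing is read from these shares. The tightest pair was Glyma17g27150 and Glyma10g14870, with an SD of 0.0280 and ratios of RPKM + 1 of 0.865 to 0.923. Their models are short, 189 and 192 bases, and with Glyma17g27200 (231 bases) they formed the 3 pairs whose ratio varied less than separate counts of their reads would. Counting error alone would give 0.0879 for the tightest pair. Glyma04g12950 and Glyma06g47830 had means of 126 and 123 RPKM. Their ratios of RPKM + 1 ran from 0.995 to 1.06 over all 14 libraries (SD 0.0298). The counting of reads with several matches is not stated, and whether these pairs share reads was not tested.

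Features that the rule did not use are given as descriptions. Model length had a median of 1090 bases in the members and 1144 in the other eligible loci. The share of loci with 2 or more models was 46% in the members and 37.7% in all eligible loci. In 45 of the 46 member loci with another model, the second model also averaged 20 RPKM or more, and in 44 of these its SD was within the members' limit of 0.299. Models of a locus may share reads, so this is no separate measurement. By the number in the identifier, members came from 19 of the 20 chromosomes and 1 from a scaffold. Chromosome 13 held 12 members and chromosome 10 held 10, which are 12% and 10% of the members, against 10.7% and 5.11% of the eligible loci. Chromosome 3 held 0 members and 37 eligible loci. The run of chromosome 13 identifiers that took 0.566% to 15.3% of the reads held 31 eligible loci and 0 members.

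Which loci counted as most stable depended on the scaling of the libraries. After upper quartile scaling 27 of the 100 stayed in the first 100, after median ratio scaling 27, after quantile normalization 52, and 85 once reads of the chromosome 13 run were left out of the totals. The upper quartile and median ratio lists shared 64 loci. The median SD of the 100 members was 0.290 after upper quartile and 0.278 after median ratio scaling, and that of the 100 loci chosen there was 0.192 and 0.181. Glyma11g11760 itself had an SD of 0.242 after upper quartile scaling and of 0.229 after median ratio scaling, ranks 113 and 109. By construction the members are the eligible loci with the steadiest shares of the reads, and other loci took most of the places once libraries are aligned by upper quartile or median ratio. The minimum of 20 RPKM was applied again to the scaled values. It left 1144 loci eligible after upper quartile and 1137 after median ratio scaling, so some places changed through the minimum and not the spread. Glyma11g35820, chosen after median ratio scaling, already had an SD of 0.211 as deposited but was not eligible there.

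Under all 4 scalings 9 members stayed in the first 100. They were Glyma13g03470, Glyma15g13940, Glyma16g23230, Glyma12g04330, Glyma10g28530, Glyma11g12120, Glyma13g21730, Glyma02g13330 and Glyma18g53610. Without stage 1, 6 of these 9 also stayed, and Glyma10g28530, Glyma02g13330 and Glyma18g53610 did not. Ranks were compared over 14 settings, namely without stage 1, 2 other pseudocounts, a minimum of 10 RPKM, 3 other measures of spread, the 4 scalings, each replicate alone and the replicate numbers' means removed. Only the 92 members eligible in all 14 settings have a worst rank. Among them Glyma15g13940 had the best worst rank, 69, followed by Glyma16g23230 with 73, Glyma13g03470 with 88, Glyma10g28530 with 109 and Glyma11g11760 with 113. Glyma15g13940, Glyma16g23230 and Glyma13g03470 were the only members inside the first 100 in all 14. A minimum of 50 RPKM, which none of these 3 loci reached in any library, was not among the 14 settings. Glyma16g23230 had a lowest, median and highest value of 23.8, 30.01 and 36.1 RPKM and an SD of 0.217. Glyma13g03470 was at 30.4 ± 4.19 RPKM and Glyma15g13940 at 27.5 ± 4.12 RPKM (SD, n = 14), so these 3 loci were of similar, moderate level. Glyma15g13940, Glyma12g04330 and Glyma11g12120 also moved together, with SDs of 0.0458 to 0.0960 for the log2 ratios of the 3 pairs.

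**Figure D5:**
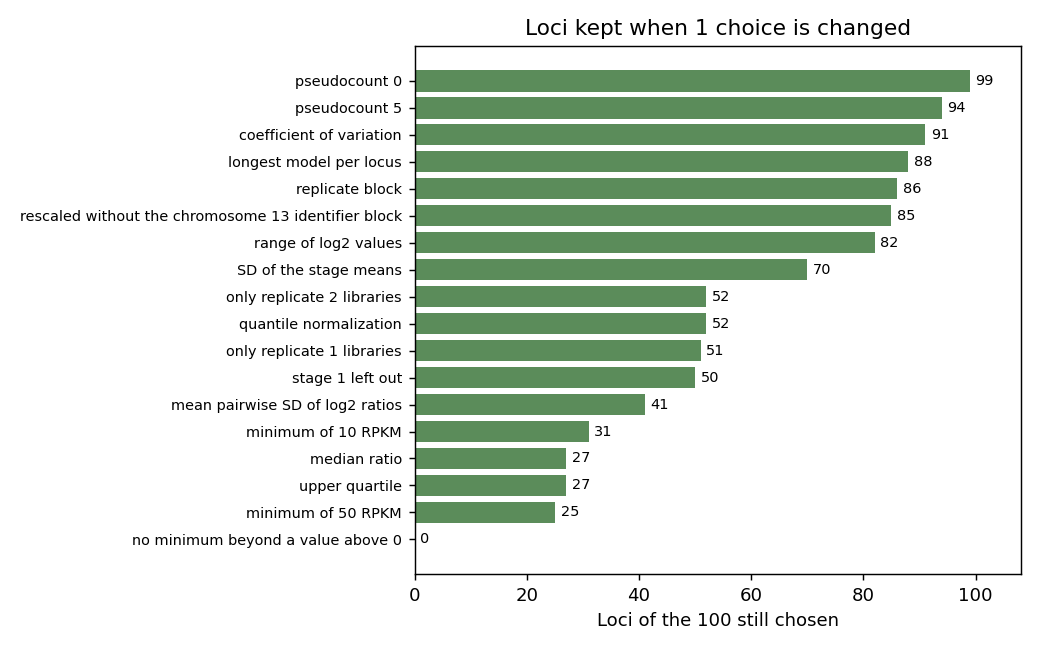
Number of the 100 members still chosen (horizontal axis, bars from 0) when 1 choice of the rule is changed (each row names the change). Other pseudocounts left 94 and 99 loci in place, leaving out stage 1 left 50, and upper quartile or median ratio scaling left 27.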

How the data were processed

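Cotyledon RNA was sequenced in 14 libraries, 7 stages of 2 replicates. The deposited files hold RPKM values that the authors computed per gene model, per the file headers. The submitters' processing notes name Bowtie as a tool. Its version, the build, the annotation and the counting rules are not stated. Whole reads, within 0.003 reads, came out of the RPKM of all 67016 models detected in 2 or more libraries, which gave read totals and model lengths. Counting values cover counting error only. The 100 loci were chosen as described above in Python 3.11.15 (pandas 2.3.3). Stage tests used limma 3.58.1 (R 4.3.3, statmod 1.5.0) on log2(RPKM + 1) of the 44450 models at 1 RPKM or more in at least 2 libraries, with a mean per stage, a mean-variance trend, robust estimation and Benjamini-Hochberg adjustment. Replicate numbers were not treated as pairing the stages (deviations correlated over 0.1 in 18 of 21 stage pairs, not in all). The choice was run on simulated loci of widely different spreads, without the minimum of 20 RPKM. That run does not bear on the edge of the list. The fits were also run on simulated data. Members, lists and comparisons were chosen with earlier results of these data known. Named loci follow a fixed rule: the 10 smallest SDs, the 5 highest and 5 lowest means, ranks 99 to 102, the extremes without stage 1, the tightest pair and the best worst ranks. Other loci were named after their values were seen. P-values measure the spread between labelled replicates. Alternatives were other scalings, pseudocounts, minimums, measures of spread, models and left-out libraries.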

Additional observations from a re-analysis of the deposited data

How the results depend on the processing

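Of the 100 members, the number chosen again (with the median SD of the new 100) was 50 (0.206) without stage 1, 31 (0.216) with a minimum of 10 RPKM, 25 (0.387) with a minimum of 50 RPKM and 0 (0.0205) with no minimum. It was 27 (0.192) after upper quartile scaling, 27 (0.181) after median ratio scaling, 52 (0.213) after quantile normalization, 51 (0.225) in replicate 1 alone and 52 (0.188) in replicate 2 alone. Ranking by the mean pairwise SD, chosen after seeing the data, kept 41 (0.317). Without 1 library, 69 to 98 stayed and the median SD was 0.229 to 0.266; 69 stayed without stage 1 replicate 1 and 75 without stage 6 replicate 2. With the replicate block, taking each replicate number's mean out, 86 stayed. The limma F test called 1 member after quantile normalization, 11 after upper quartile and 18 after median ratio scaling, 0 with the replicate block and 0 to 1 without 1 library, the 1 being without stage 1 replicate 2. Stage 7 against stage 1 called 0 members with the replicate block and 0 to 1 without 1 library; with a pseudocount of 5 it called 8044 of all models. Replicate 1 deviations correlated at -0.17 to 0.60 between stages and over 0.1 in 18 of 21 stage pairs, and the chromosome 13 run took a larger share of reads in replicate 2 in all 7 stages. The numbers may thus carry a shared difference, which was not tested. With the replicate block the F test called 499 of the eligible loci, against 419 without it, and 11 members passed the adjusted p of stage 7 against stage 1 at any fold, against 5. In libraries not used for the choice, the median SD without stage 1 was 0.227 for loci chosen in replicate 1 and 0.256 for those chosen in replicate 2. The SD of the library offsets was 0.131, and 0.0985 to 0.208 over the scalings. Counting error was small beside every member's spread. The replicates of a stage, 2 each, set the precision.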

Other observations

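After median ratio scaling the steadiest locus was Glyma10g04480, with an SD of 0.105 there and of 0.307 as deposited, at a mean of 33.0 RPKM. Next in that order came the member Glyma18g53610, with an SD of 0.111 there and of 0.278 as deposited. Glyma10g32400, just outside the list as deposited, followed with 0.112. Glyma16g26330, at a mean of 32.1 RPKM, had 0.115 and was not eligible as deposited.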
